A study of Homo sapiens with 6 samples.

Results

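The genes described here are 54 genes whose level followed that of ELK3 across 3 groups of triple-negative breast cancer cells, all labelled as the MDA-MB-231 line. ELK3 is a DNA-binding protein of the ETS family. The genes were chosen from measured values. Counts of lines with the same gene symbol were summed and divided by the library total to give counts per 1000000 (CPM), and the 2 libraries of a group were averaged. A gene was kept when it had at least 5 CPM in controls, stood at least 1.5-fold above controls in the group where ELK3 was high, and at least 1.5-fold below controls in the group where ELK3 was low. ELK3 itself was left out. Of 24462 symbols, 11470 had 5 CPM in controls, and 54 of these (0.471%) met the rule, against 112 (0.976%) that met its mirror image. Taken alone, the downward condition held for 21.0% and the upward one for 24.7% of the 11470 genes. The rule set each plasmid group against controls, which also fixed the direction between the plasmid groups. The levels of these genes are therefore described and not tested.

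Per the labels, the first group holds MDA-MB-231 cells with a stable shRNA knockdown of ELK3, made with retroviruses, that received a lentiviral plasmid carrying tagged ELK3 (labelled ELK3KD+ELK3, 2 libraries). The next holds the same knockdown cells with the plasmid lacking ELK3 (labelled ELK3KD+CV, 2 libraries). Both received 1 µg of plasmid with Lipofectamine 2000 and were collected after 48 hours. The last holds control cells (231-C, 2 libraries), for which no plasmid amount or time is recorded. Knockdown, transfection and a possible difference in cell line therefore cannot be told apart where either plasmid group is set against controls. No label says whether knockdown cells were a clone or a pool, or whether replicates were separate cultures, so the spread between replicates may be technical only. Libraries were made with a Lexogen kit that reads the ends of transcripts, and their totals ran between 4884483 and 9131214 counts.

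ELK3 went against the labels. It stood at 21.47 and 23.33 CPM in the libraries labelled ELK3KD+ELK3, at 774.5 and 713.3 CPM in those labelled ELK3KD+CV, and at 120.9 and 114.6 CPM in 231-C controls. The libraries labelled as carrying the ELK3 plasmid thus had the lowest ELK3, 5.26-fold below controls, and those labelled with the empty plasmid the highest, 6.32-fold above controls. The submitters' count columns carry the opposite plasmid designation. Groups are called here by their labels, as +ELK3-labelled and +CV-labelled libraries, and the names do not describe the ELK3 measured. Of 28 tested genes typical of MDA-MB-231, 27 were called lower than controls and 1 higher in either plasmid group, with summed levels of 1913 to 2007 CPM in +ELK3-labelled libraries, 1811 to 1881 CPM in +CV-labelled libraries and 12930 to 13050 CPM in controls. Of 19 tested genes typical of HEK293, a kidney-derived line, 16 were higher and 0 lower in +ELK3-labelled libraries than in controls, and 13 were higher and 2 lower in +CV-labelled libraries. The lowest and highest summed level of these genes was 1644 and 1764 CPM in +ELK3-labelled libraries, 731.5 and 731.7 CPM in +CV-labelled libraries, and 421.4 and 431.2 CPM in controls. None of the 54 genes is on either list, no gene of either list was at 0 in every library, and the part of these differences in the graded pattern was not tested.

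ELK3 and its relatives ELK1 and ELK4 are ternary complex factors. They bind ETS sites next to a CArG box held by serum response factor (SRF), and ERK phosphorylation controls their activity. Without that signal ELK3 is known as a repressor and after phosphorylation it can activate. The ETS motif used here, CCGGAAGT, is a strict form around the shorter ETS core GGAA, which was not searched for on its own. The CArG box is the site of SRF.

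**Figure D1:**
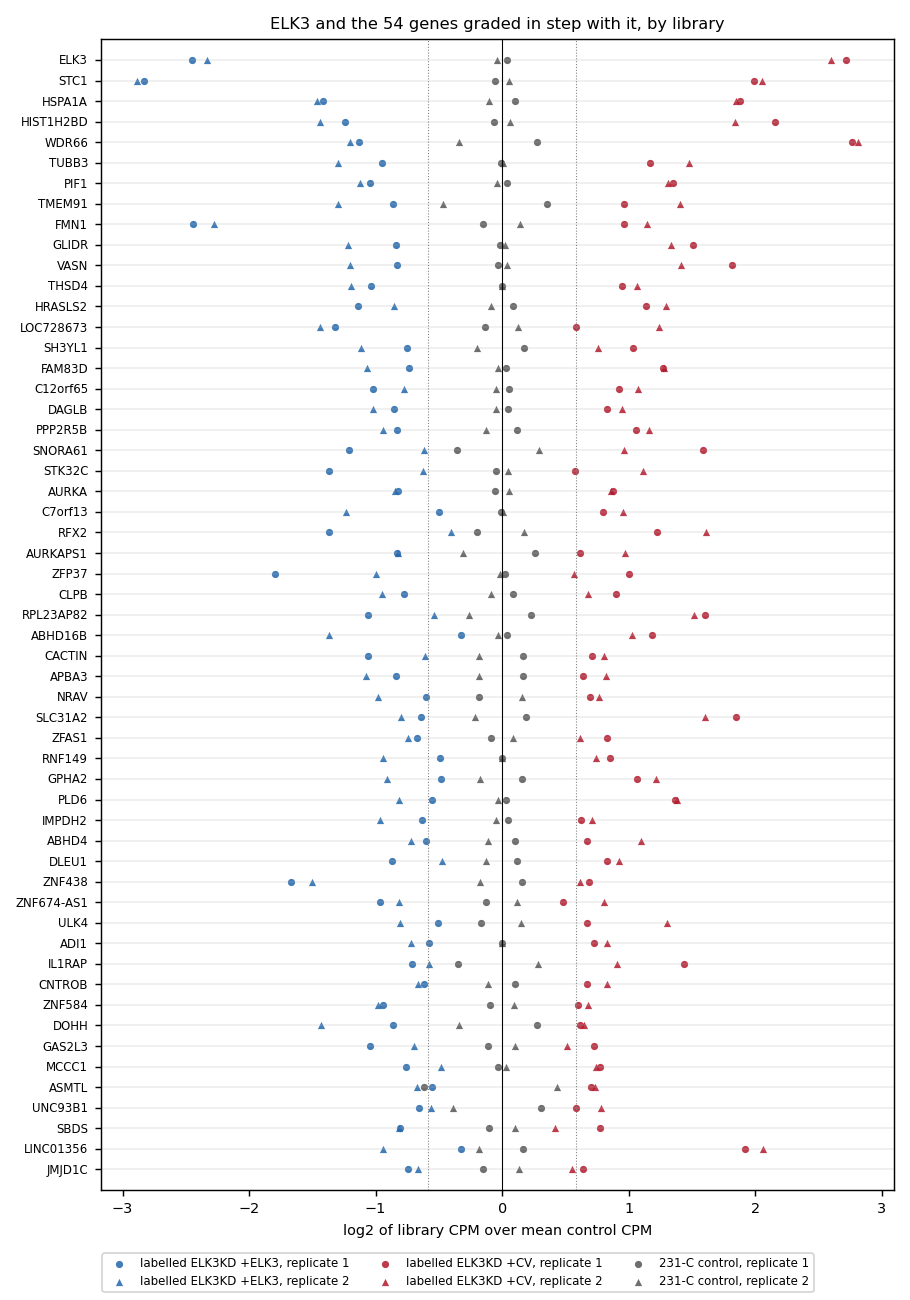
Log2 of each library's CPM over the mean control CPM (x axis) for ELK3 and the 54 graded genes (y axis, ordered by the smaller of their changes from controls), with 1 point per library. Blue points, labelled ELK3KD+ELK3, lie left of 0 and red points, labelled ELK3KD+CV, lie right of it. In ASMTL alone a control library falls among the blue points, and dotted lines mark a fold of 1.5.

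The core promoters of a few of these genes are shown to let the sequence next to the transcription start be read beside the values. They come from RefSeq for GRCh38.p14, run 5′ to 3′ on the gene's own strand, are 120 bases long, and end 0 to 47 bases before the start. Genes were picked after their values and matches were seen. Capitals mark the ETS motif, read here on the opposite strand as ACTTCCGG, in CNTROB, the only graded gene with it among those that had a promoter in the table. In the others capitals mark CCAAT or its reverse ATTGG, the box bound by NF-Y.
CNTROB (chr17:7931914-7932033, + strand): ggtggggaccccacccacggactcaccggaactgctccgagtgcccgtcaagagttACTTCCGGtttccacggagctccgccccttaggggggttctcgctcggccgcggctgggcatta
HSPA1A (chr6:31815416-31815535, + strand): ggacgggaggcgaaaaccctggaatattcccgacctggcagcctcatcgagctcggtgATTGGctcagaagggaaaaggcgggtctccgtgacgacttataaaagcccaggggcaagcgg
HIST1H2BD (chr6:26157990-26158109, + strand): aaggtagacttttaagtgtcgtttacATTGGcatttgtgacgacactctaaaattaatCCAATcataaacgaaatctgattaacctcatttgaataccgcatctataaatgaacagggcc
TUBB3 (chr16:89923205-89923324, + strand): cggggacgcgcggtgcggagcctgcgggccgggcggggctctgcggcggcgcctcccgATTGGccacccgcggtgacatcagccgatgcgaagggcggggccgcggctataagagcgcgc
PIF1 (chr15:64825648-64825767, - strand): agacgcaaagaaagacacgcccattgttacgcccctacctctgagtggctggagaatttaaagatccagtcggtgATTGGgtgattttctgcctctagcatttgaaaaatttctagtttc

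Promoters of 300 bases (250 before and 50 after the start) were in the table for 38 of the 54 genes (70.4%). This is under 80%, so any comparison of motif shares is void, and the shares are given as a description. CCGGAAGT, on either strand, was in 1 of 38 graded promoters (2.63%), in 10.7% of 9165 promoters of genes with 5 CPM in controls and in 4.95% of all 27305 promoters. The CArG box was in 0 of 38, in 1.67% of the measured genes' promoters and in 1.6% of all. CCAAT was in 20 of 38 (52.6%), in 43.9% of the measured and in 39.7% of all. The cyclic AMP element TGACGTCA was in 2 of 38 (5.26%) and 3.96% of the measured, and the AP-1 site TGACTCA in 2 of 38 and 4.55% of the measured. The E2F site TTTCCCGC was in 2 of 38 and 3.44% of the measured, and TTTGGCGC in 0 of 38 and 1.46% of the measured. All motifs were searched on both strands, and CCAAT can lie within a CArG box while no other motif contains another.

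Secreted and surface proteins made up 9 of the 54 genes. STC1, stanniocalcin-1, a secreted glycoprotein that acts on calcium and phosphate handling, stood at 12.42 and 11.94 CPM in +ELK3-labelled libraries, 349.8 and 366.1 CPM in +CV-labelled libraries and 85.1 and 91.49 CPM in controls. The 3 groups were far apart and replicates close together. The mean was 7.25-fold lower in +ELK3-labelled libraries than in controls (95% counting interval 6.2 to 8.58) and 4.05-fold higher in +CV-labelled libraries (3.76 to 4.35). Its relative STC2, which is not among the 54, averaged 42.22 CPM in +ELK3-labelled libraries, 12.3 CPM in +CV-labelled libraries and 5.537 CPM in controls, highest where STC1 was lowest. Counting intervals for the ratios here and below come from counts summed over the libraries of a group, so they cover counting error only. Replicates differed by more than counting noise, and the libraries are not described as carrying molecular identifiers, so the intervals may be too narrow.

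VASN, a membrane protein whose shed form binds TGF-beta, had 6.208 and 4.819 CPM in +ELK3-labelled libraries, 38.98 and 29.48 CPM in +CV-labelled libraries and 10.81 and 11.34 CPM in controls. THSD4, a matrix protein of microfibrils, had 9.898 and 8.871 CPM in +ELK3-labelled libraries, 38.98 and 42.38 CPM in +CV-labelled libraries and 20.24 and 20.29 CPM in controls. TMEM91, a membrane protein, had 8.892 and 6.571 CPM in +ELK3-labelled libraries, 31.63 and 42.99 CPM in +CV-labelled libraries and 20.64 and 11.73 CPM in controls. Its controls differed from each other more than those of VASN or THSD4, but no groups overlapped in these 3 genes. IL1RAP, the shared co-receptor of interleukin-1 family receptors, had 5.201 and 5.695 CPM in +ELK3-labelled libraries, 23.09 and 15.97 CPM in +CV-labelled libraries and 6.682 and 10.34 CPM in controls. SLC31A2, a copper transporter of internal membranes, was 1.65-fold lower than controls in +ELK3-labelled libraries and 3.32-fold higher in +CV-labelled libraries. The others were GPHA2, a glycoprotein hormone subunit, RNF149, a membrane-bound ubiquitin ligase, and UNC93B1. UNC93B1 carries nucleic acid-sensing Toll-like receptors out of the endoplasmic reticulum. These others were between 1.53-fold and 1.62-fold below controls in +ELK3-labelled libraries. In +CV-labelled libraries they were between 1.61-fold and 2.21-fold above controls.

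The group on cell division, tubulin and DNA upkeep held 6 genes. AURKA, the mitotic kinase Aurora A, had 175.0 and 172.4 CPM in +ELK3-labelled libraries, 566.7 and 561.6 CPM in +CV-labelled libraries and 298.4 and 320.8 CPM in controls. FAM83D, which brings casein kinase 1 to the spindle, had 58.05 and 46.22 CPM in +ELK3-labelled libraries, 233.3 and 234.6 CPM in +CV-labelled libraries and 99.06 and 94.67 CPM in controls. The 3 groups were separate in both genes. Replicates of AURKA lay close together, and the +ELK3-labelled replicates of FAM83D differed by 0.33 on the log2 scale. AURKA was 1.78-fold lower than controls in +ELK3-labelled libraries (1.69 to 1.88) and 1.82-fold higher in +CV-labelled libraries (1.75 to 1.9). FAM83D was 1.86-fold lower in +ELK3-labelled libraries (1.73 to 2.09) and 2.42-fold higher in +CV-labelled libraries (2.24 to 2.6).

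TUBB3, the class III beta-tubulin of neurons that many tumour lines also express, had 25.5 and 20.04 CPM in +ELK3-labelled libraries, 110.8 and 137.0 CPM in +CV-labelled libraries and 48.94 and 49.52 CPM in controls. PIF1, a DNA helicase of telomeres and mitochondria, had 11.24 and 10.62 CPM in +ELK3-labelled libraries, 58.92 and 57.32 CPM in +CV-labelled libraries and 23.78 and 22.47 CPM in controls. Both were more than 2-fold away from controls on either side. CNTROB, a centriole duplication protein, had 24.33 and 23.55 CPM in +ELK3-labelled libraries, 59.37 and 66.33 CPM in +CV-labelled libraries and 40.09 and 34.61 CPM in controls. GAS2L3, which links actin and microtubules, had 24.83 and 31.65 CPM in +ELK3-labelled libraries, 84.56 and 72.88 CPM in +CV-labelled libraries and 47.37 and 55.09 CPM in controls, and lay near the upper threshold at 1.54-fold above controls.

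Chaperones were represented by HSPA1A and CLPB. HSPA1A, the stress-inducible cytosolic HSP70, had 22.15 and 21.46 CPM in +ELK3-labelled libraries, 217.1 and 212.1 CPM in +CV-labelled libraries and 63.29 and 54.89 CPM in controls. HSPA1B, an almost identical neighbour whose reads the counting could have split from those of HSPA1A, had 591.4 and 611.3 CPM in +ELK3-labelled libraries, 534.9 and 522.3 CPM in +CV-labelled libraries and 100.6 and 109.4 CPM in controls. HSPA1B was thus high in both plasmid groups. Summed, the pair averaged 623.2 CPM in +ELK3-labelled libraries, 743.2 CPM in +CV-labelled libraries and 164.1 CPM in controls, 3.8-fold above controls in +ELK3-labelled libraries and 4.53-fold in +CV-labelled libraries, and the graded order of HSPA1A did not hold for the sum. The grading of HSPA1A is therefore uncertain. Both symbols stood on 5 lines in the files. CLPB, a disaggregase of the mitochondrial intermembrane space, had 8.556 and 7.556 CPM in +ELK3-labelled libraries, 27.29 and 23.34 CPM in +CV-labelled libraries and 15.53 and 13.72 CPM in controls.

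**Figure D2:**
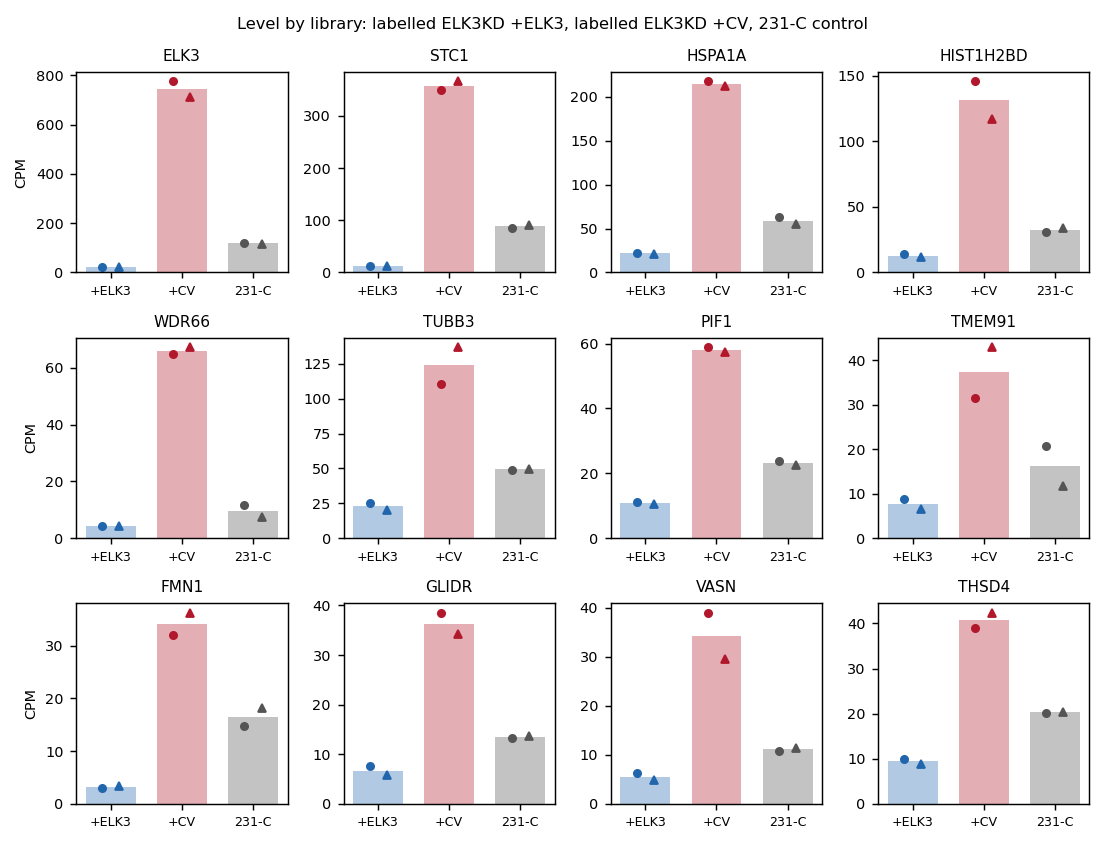
CPM (y axis, each panel with its own scale) of ELK3 and the 11 graded genes at least 2-fold away from controls on both sides, in libraries labelled ELK3KD+ELK3 (blue), labelled ELK3KD+CV (red) and 231-C controls (grey). Bars are means of 2 libraries and points are single libraries, circle for replicate 1 and triangle for replicate 2. In every panel all blue points lie below and all red points above the grey ones.

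Chromatin and transcription genes numbered 6. HIST1H2BD, an H2B histone gene of the large cluster on chromosome 6, had 13.76 and 12.05 CPM in +ELK3-labelled libraries, 145.7 and 117.1 CPM in +CV-labelled libraries and 31.25 and 34.01 CPM in controls. The mean was 2.53-fold below controls in +ELK3-labelled libraries (2.14 to 3.08) and 4.03-fold above them in +CV-labelled libraries (3.63 to 4.63). H2B genes resemble each other closely, so reads may be shared among them. ZNF438, a zinc finger protein, had 6.04 and 6.79 CPM in +ELK3-labelled libraries, 31.03 and 29.48 CPM in +CV-labelled libraries and 21.42 and 17.1 CPM in controls. Its controls sat nearest to the +CV-labelled group of all 54 genes, at 70.9% of the log2 distance between both plasmid groups. RFX2, a factor of ciliary genes, had 2.181 and 4.271 CPM in +ELK3-labelled libraries, 13.19 and 17.2 CPM in +CV-labelled libraries and 4.914 and 6.364 CPM in controls. JMJD1C, of the jumonji histone demethylase family, had 96.3 and 101.8 CPM in +ELK3-labelled libraries, 251.0 and 236.1 CPM in +CV-labelled libraries and 145.6 and 177.2 CPM in controls. The zinc finger genes ZNF584 and ZFP37 were 1.95-fold and 2.53-fold below controls in +ELK3-labelled libraries and 1.56-fold and 1.74-fold above them in +CV-labelled libraries.

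Signalling and cytoskeletal genes numbered 7. WDR66, a protein of cilia and flagella, had 4.362 and 4.162 CPM in +ELK3-labelled libraries, 64.92 and 67.36 CPM in +CV-labelled libraries and 11.6 and 7.558 CPM in controls. Its 6.91-fold difference between +CV-labelled libraries and controls (5.56 to 8.59) was the largest upward change of the 54. FMN1, a formin that builds actin filaments, had 3.02 and 3.395 CPM in +ELK3-labelled libraries, 32.08 and 36.24 CPM in +CV-labelled libraries and 14.74 and 18.1 CPM in controls. Most of its range lay below controls, with a 5.12-fold lower level (3.65 to 7.1) in +ELK3-labelled libraries against a 2.08-fold higher level (1.72 to 2.49) in +CV-labelled libraries. PPP2R5B, a regulatory subunit of phosphatase 2A, had 7.214 and 6.68 CPM in +ELK3-labelled libraries, 26.69 and 28.66 CPM in +CV-labelled libraries and 13.95 and 11.73 CPM in controls. APBA3, an adaptor protein, SH3YL1, a phosphoinositide-binding protein, the kinase STK32C and the pseudokinase ULK4 were 1.57-fold to 1.94-fold below controls in +ELK3-labelled libraries and 1.66-fold to 2.03-fold above them in +CV-labelled libraries.

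Lipid enzymes numbered 5. PLD6, a phospholipase D of the mitochondrial outer membrane that acts in mitochondrial fusion and in making piRNAs, had 14.76 and 12.38 CPM in +ELK3-labelled libraries, 56.07 and 56.71 CPM in +CV-labelled libraries and 22.21 and 21.28 CPM in controls. DAGLB, a diacylglycerol lipase that makes the endocannabinoid 2-arachidonoylglycerol, had 13.25 and 11.83 CPM in +ELK3-labelled libraries, 42.73 and 46.27 CPM in +CV-labelled libraries and 24.76 and 23.27 CPM in controls. HRASLS2, a phospholipase and acyltransferase, had 2.684 and 3.285 CPM in +ELK3-labelled libraries, 13.04 and 14.54 CPM in +CV-labelled libraries and 6.289 and 5.569 CPM in controls. Groups did not overlap in these 3 genes. ABHD4, a hydrolase of N-acyl phospholipids, and its family member ABHD16B were 1.58-fold and 1.69-fold below controls in +ELK3-labelled libraries and 1.86-fold and 2.16-fold above them in +CV-labelled libraries.

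Metabolic enzymes numbered 5 and had narrow ranges, between 1.53-fold and 2.17-fold below controls in +ELK3-labelled libraries and between 1.55-fold and 1.72-fold above them in +CV-labelled libraries. IMPDH2, the rate-limiting enzyme of guanine nucleotide synthesis, had 86.07 and 68.67 CPM in +ELK3-labelled libraries, 206.6 and 218.9 CPM in +CV-labelled libraries and 138.2 and 129.7 CPM in controls. ADI1, of the methionine salvage pathway, had 98.31 and 89.04 CPM in +ELK3-labelled libraries, 242.4 and 260.8 CPM in +CV-labelled libraries and 146.6 and 146.4 CPM in controls. The others were MCCC1, a subunit of the leucine-degrading carboxylase, DOHH, which completes hypusine on translation factor eIF5A, and ASMTL. ASMTL had 4.53 and 4.162 CPM in +ELK3-labelled libraries, 10.79 and 11.06 CPM in +CV-labelled libraries and 4.324 and 8.95 CPM in controls. One control lay inside the range of the +ELK3-labelled libraries, which makes ASMTL the only gene of the 54 whose groups overlapped.

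Genes of translation and RNA numbered 3. C12orf65, a release factor that rescues stalled mitochondrial ribosomes, had 47.31 and 55.96 CPM in +ELK3-labelled libraries, 181.9 and 202.1 CPM in +CV-labelled libraries and 99.25 and 92.48 CPM in controls. SBDS, which matures the large ribosomal subunit, had 81.7 and 81.26 CPM in +ELK3-labelled libraries, 244.7 and 190.6 CPM in +CV-labelled libraries and 132.7 and 153.1 CPM in controls. CACTIN, a splicing protein, was 1.76-fold below controls in +ELK3-labelled libraries and 1.69-fold above them in +CV-labelled libraries.

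Noncoding genes and pseudogenes were the largest set, with 11. GLIDR, a long noncoding RNA, had 7.55 and 5.804 CPM in +ELK3-labelled libraries, 38.53 and 34.19 CPM in +CV-labelled libraries and 13.36 and 13.72 CPM in controls. ZFAS1, a long noncoding RNA that hosts small nucleolar RNAs, had 151.8 and 145.2 CPM in +ELK3-labelled libraries, 430.0 and 372.4 CPM in +CV-labelled libraries and 228.0 and 257.4 CPM in controls. LINC01356 had 5.033 and 3.285 CPM in +ELK3-labelled libraries, 23.84 and 26.41 CPM in +CV-labelled libraries and 7.076 and 5.569 CPM in controls, and its controls lay nearest to the +ELK3-labelled group of all 54 genes, at 23.3% of the log2 distance. SNORA61 is a small nucleolar RNA that lies inside a host gene whose reads could have been counted for it. It had 2.181 and 3.285 CPM in +ELK3-labelled libraries, 15.14 and 9.827 CPM in +CV-labelled libraries and 3.931 and 6.165 CPM in controls. SNHG12, the measured gene before SNORA61, had log2 changes against controls of 0.33 in +ELK3-labelled and 2.45 in +CV-labelled libraries. Sharing of reads was not tested. DLEU1, NRAV, C7orf13, LOC728673, RPL23AP82 and ZNF674-AS1 were 1.58-fold to 2.6-fold below controls in +ELK3-labelled libraries and 1.57-fold to 2.95-fold above them in +CV-labelled libraries. RPL23AP82 is a ribosomal protein pseudogene, and whether the counting used strand is not given in the sources used here, so its reads and those of ZNF674-AS1, an antisense gene, may be shared with the parent or partner gene.

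AURKAPS1, a pseudogene of AURKA, had 43.45 and 43.59 CPM in +ELK3-labelled libraries, 118.7 and 151.1 CPM in +CV-labelled libraries and 92.37 and 62.25 CPM in controls. Its counts were 24.8% and 25.3% of those of AURKA in +ELK3-labelled libraries, 21.0% and 26.9% in +CV-labelled libraries and 31.0% and 19.4% in controls. The pair therefore cannot be counted as independent members. Their sum averaged 217.2 CPM in +ELK3-labelled libraries, 699.1 CPM in +CV-labelled libraries and 386.9 CPM in controls. That is 0.561 of the control level in +ELK3-labelled libraries and 1.81-fold the control level in +CV-labelled libraries, so the sum kept the graded order.

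**Figure D3:**
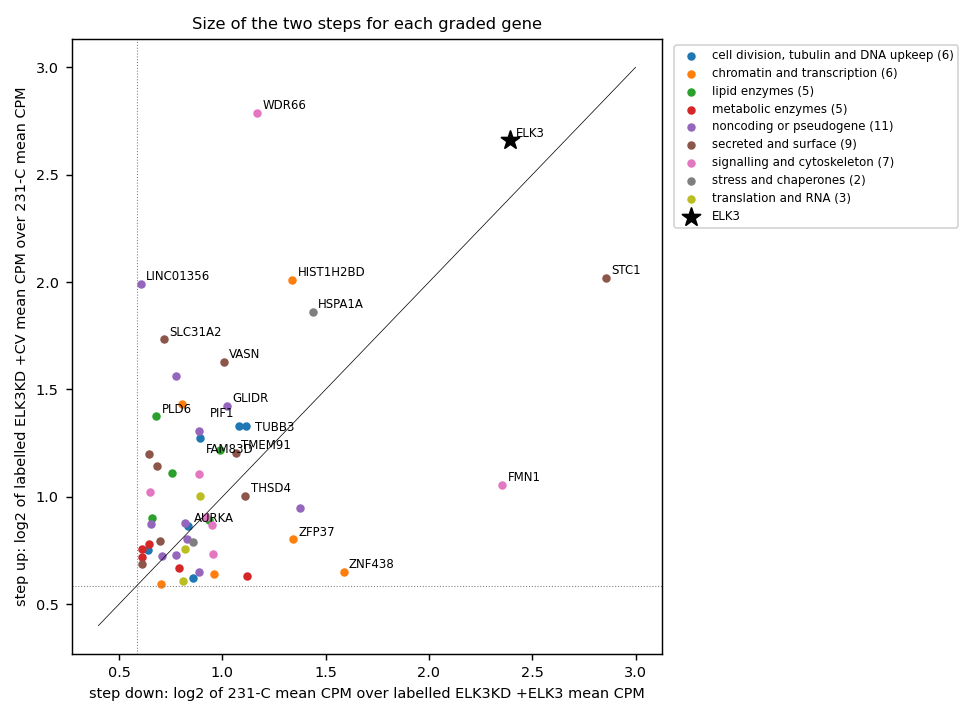
Each graded gene by its change below controls (x axis, log2 of the 231-C mean CPM over the mean labelled ELK3KD+ELK3) and above controls (y axis, log2 of the mean labelled ELK3KD+CV over the 231-C mean), coloured by role, with the number of genes of each role in the legend and ELK3 as a star. The solid line marks equal changes and dotted lines the threshold of 1.5-fold. Most of the 54 genes crowd near the thresholds, and STC1, WDR66, HIST1H2BD, HSPA1A and FMN1 lie farther out, nearest to ELK3.

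Among themselves the 54 genes varied in size and balance. The mean was 1.52-fold to 7.25-fold lower (median 1.81) in +ELK3-labelled libraries than in controls, 1.51-fold to 6.91-fold higher (median 1.87) in +CV-labelled libraries than in controls, and 2.45-fold to 29.4-fold higher (median 3.55) in +CV-labelled than in +ELK3-labelled libraries. In 11 genes both changes from controls reached 2-fold, in 4 only the downward one, in 14 only the upward one and in 25 neither. The downward change was the larger in 21 genes and the upward one in 33. Controls lay at 40 to 60% of the log2 distance between the plasmid groups in 39 genes, and ELK3 controls at 47.4%. Measured by the Euclidean distance of both log2 changes from those of ELK3, the nearest genes were STC1 (0.7913), WDR66 (1.2323), HIST1H2BD (1.2392), HSPA1A (1.2456) and FMN1 (1.6033), followed by VASN, TUBB3, GLIDR, PIF1 and LINC01356 (1.7291 to 1.9106). STC1 alone had a change below controls larger than that of ELK3, and WDR66 alone a change above controls larger than that of ELK3.

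At the thresholds, membership was a matter of small differences. Just inside the minimum control level were SNORA61, ZFP37 and RFX2 (5.048 to 5.639 CPM), and just outside it CRISPLD2, HIST1H2AM and ALDH8A1 (4.949, 4.652 and 4.449 CPM). Just inside the downward threshold were LINC01356, UNC93B1 and ASMTL (1.52-fold to 1.527-fold), and just outside it PER3, CLDN1 and RNF181 (1.495-fold, 1.49-fold and 1.483-fold). Just inside the upward threshold were JMJD1C, SBDS and GAS2L3 (1.509-fold to 1.537-fold), and just outside it SLFN12, WIPI1 and ABHD10 (1.48-fold, 1.437-fold and 1.435-fold). Of the 54 genes, 18 had under 10 CPM in controls. The smallest count of any member in a library was 9, and none was at 0.

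Set against replicate spread, both +ELK3-labelled libraries lay below and both +CV-labelled libraries above both controls in 53 of 54 genes, an order found in 4.48% of the 11470 genes. In 49 genes the smaller of the changes exceeded the largest difference between replicates of any group, and in 5 it did not. The 95% counting intervals of both changes lay above 1 in all 54 genes and above 1.5 in 17. Because the rule required folds of 1.5, intervals above 1 were favoured in advance, and they hold no spread between replicates. In edgeR's quasi-likelihood fit over 15386 genes, with a Benjamini-Hochberg adjusted p under 0.05, 54 of 54 were called lower in +ELK3-labelled libraries than in controls (30.8% of all genes tested), 52 of 54 higher in +CV-labelled libraries than in controls (37.0% of all) and 54 of 54 lower in +ELK3-labelled than in +CV-labelled libraries (29.6% of all). The call in the rule's direction in all 3 contrasts was made for 52 members and for 1.77% of all genes tested. ASMTL and ZNF674-AS1 were the genes not called. Because the rule chose on the contrasts with controls, it also fixed the direction between the plasmid groups. The counts of separate groups and of calls therefore describe replicate spread only.

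The rule was also applied to replicate 1 of each group, with the genes so chosen read in replicate 2, and the reverse. Replicate 1 alone gave 44 genes. In replicate 2, 41 of these kept the graded order, an order that 10.2% of all genes at the level set had there, and 25 met both folds again, against 0.578% of all genes. Their median log2 change in replicate 2 was -0.82 in +ELK3-labelled libraries and 1.12 in +CV-labelled libraries, each against the control. Replicate 2 alone gave 66 genes, of which 60 kept the order in replicate 1 (10.0% of all) and 27 met both folds (0.384% of all), with medians of -0.75 and 0.89. All genes here are those with 5 CPM in the control of the replicate read. No such minimum was set there for the chosen genes. The genes chosen in both, 25 in number, were 56.8% of the replicate 1 set and 37.9% of the replicate 2 set. The sets of 44 and 66 genes differ from the full set of graded genes, which was chosen on both replicates. These figures therefore do not test the full set. The shares of all genes are not a chance level, because a chosen set would exceed them wherever counts repeat between replicates. If replicates are repeats of the same culture, these figures measure technical repeatability only.

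**Figure D4:**
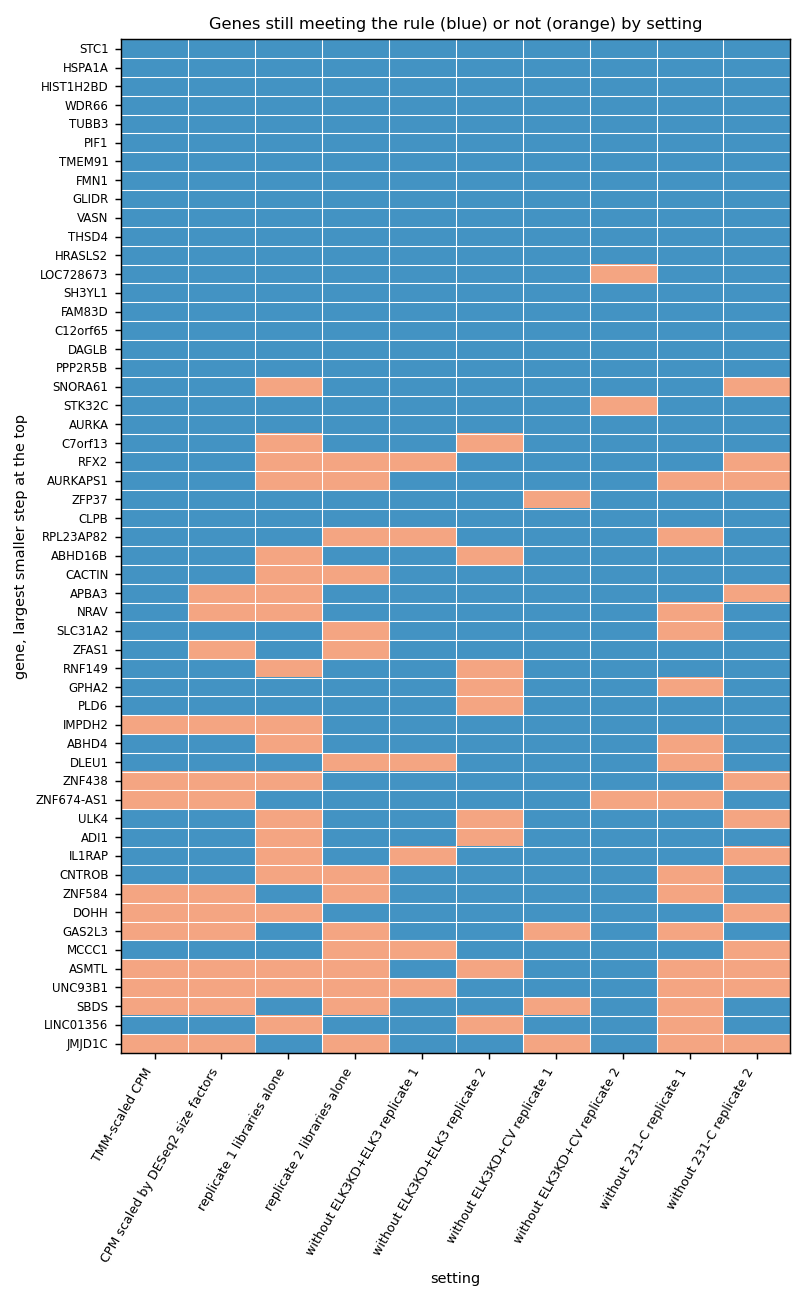
Whether each of the 54 genes (y axis, those with the largest smaller change at the top) still met the rule (blue) or did not (orange) under 10 settings (x axis): TMM scaling, DESeq2 size factors, each replicate alone and each library left out. In all, 19 genes met it in every setting, among them the 11 with 2-fold changes on both sides, and ASMTL and UNC93B1 met it in only 3.

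Which genes met the rule depended on the scaling by library totals that the rule prescribes. With totals the median log2 change of all genes tested was 0.176 in +ELK3-labelled libraries and 0.179 in +CV-labelled libraries against controls, and with TMM factors 0.017 and 0.047. Over the 11470 genes with 5 CPM in controls, from which the 54 came, the medians with totals were 0.027 and -0.080. All changes in either plasmid group are therefore to be read against a shift whose size depended on the genes taken. The rule applied to TMM-scaled CPM gave 64 genes, 44 of them among the 54, and to CPM scaled by DESeq2 size factors 61 genes, 41 of them among the 54. ASMTL, DOHH, GAS2L3, IMPDH2, JMJD1C, SBDS, UNC93B1, ZNF438, ZNF584 and ZNF674-AS1 fell out under both, and APBA3, NRAV and ZFAS1 under DESeq2 size factors alone.

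Of 1354 genes on 53 lists with 5 CPM in controls, 5 were graded (0.369%, beside 0.471% of all genes at that level). No graded gene was on the lists of ternary complex factors and SRF (5 genes at that level), other ETS factors (12), immediate early genes (21) or SRF and MRTF cytoskeletal genes (25). Over all genes tested, the fit called 31.8% higher and 30.8% lower in +ELK3-labelled libraries than in controls, 37.0% higher and 35.3% lower in +CV-labelled libraries than in controls, and 30.0% higher and 29.6% lower in +ELK3-labelled than in +CV-labelled libraries. There, 1 of 5 tested genes of the ternary complex list was higher and 3 lower in +ELK3-labelled libraries than in controls, and 2 were higher and 3 lower in +CV-labelled libraries than in controls. ELK1 averaged 41.17 CPM in +ELK3-labelled libraries, 50.11 CPM in +CV-labelled libraries and 56.94 CPM in controls, and ELK4 averaged 12.76 CPM in +ELK3-labelled libraries, 14.62 CPM in +CV-labelled libraries and 34.68 CPM in controls, so neither relative followed the order of ELK3. SRF averaged 159.3 CPM in +ELK3-labelled libraries, 89.44 CPM in +CV-labelled libraries and 265.4 CPM in controls.

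AURKA stood on the list of 50 mitosis and spindle genes. Of these, 5 were called higher and 34 lower in +ELK3-labelled libraries than in controls (median log2 change -0.58), and 16 higher and 22 lower in +CV-labelled libraries than in controls (median -0.10). Between the plasmid groups, 10 were higher and 35 lower in +ELK3-labelled than in +CV-labelled libraries (median -0.58, beside -0.02 over all genes tested). Graded like ELK3 was AURKA only. BIRC5, survivin, found at the inner centromere, averaged 319.6 CPM in +ELK3-labelled libraries, 1164 CPM in +CV-labelled libraries and 228.0 CPM in controls. BIRC5 was highest where ELK3 was high but not below controls where ELK3 was low. NUSAP1, a spindle microtubule protein, averaged 183.1 CPM in +ELK3-labelled libraries, 359.4 CPM in +CV-labelled libraries and 377.7 CPM in controls, low where ELK3 was low but not above controls where ELK3 was high. The neighbour of AURKA on chromosome 20, CSTF1, a polyadenylation factor, averaged 29.86 CPM in +ELK3-labelled libraries, 84.16 CPM in +CV-labelled libraries and 27.38 CPM in controls.

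HIST1H2BD stood on the list of histones, of which 34 were tested. Of these, 3 were higher and 18 lower in +ELK3-labelled libraries than in controls, 13 higher and 11 lower in +CV-labelled libraries than in controls, and 4 higher and 19 lower in +ELK3-labelled than in +CV-labelled libraries. HIST1H2AM averaged 1.831 CPM in +ELK3-labelled libraries, 14.71 CPM in +CV-labelled libraries and 4.652 CPM in controls, and missed the rule only by its control level. HIST2H2BE averaged 7.082 CPM in +ELK3-labelled libraries, 82.82 CPM in +CV-labelled libraries and 4.645 CPM in controls. HIST1H2BK averaged 70.72 CPM in +ELK3-labelled libraries, 199.2 CPM in +CV-labelled libraries and 311.1 CPM in controls. Each of these was higher in +CV-labelled than in +ELK3-labelled libraries, with controls between them in HIST1H2AM only.

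HSPA1A was 1 of 24 tested cytosolic chaperones, of which 5 were higher and 12 lower in +ELK3-labelled libraries than in controls, and 8 higher and 14 lower in +CV-labelled libraries than in controls. DNAJB1, an HSP40 that works with HSP70 and is induced with it by heat shock, averaged 158.1 CPM in +ELK3-labelled libraries, 65.82 CPM in +CV-labelled libraries and 158.3 CPM in controls. PLD6 was 1 of 19 tested genes of mitochondrial fusion and cristae, of which 5 were higher and 7 lower in +ELK3-labelled libraries than in controls, and 8 higher and 9 lower in +CV-labelled libraries than in controls. The fusion GTPase MFN2 averaged 116.2 CPM in +ELK3-labelled libraries, 134.1 CPM in +CV-labelled libraries and 70.58 CPM in controls, above controls in both plasmid groups. TUBB3 was 1 of 32 tested neuronal genes, of which 20 were higher and 4 lower in +ELK3-labelled libraries than in controls, and 25 higher and 4 lower in +CV-labelled libraries than in controls, so that in each plasmid group more of the list was higher than lower, while TUBB3 was above controls only in +CV-labelled libraries.

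**Figure D5:**
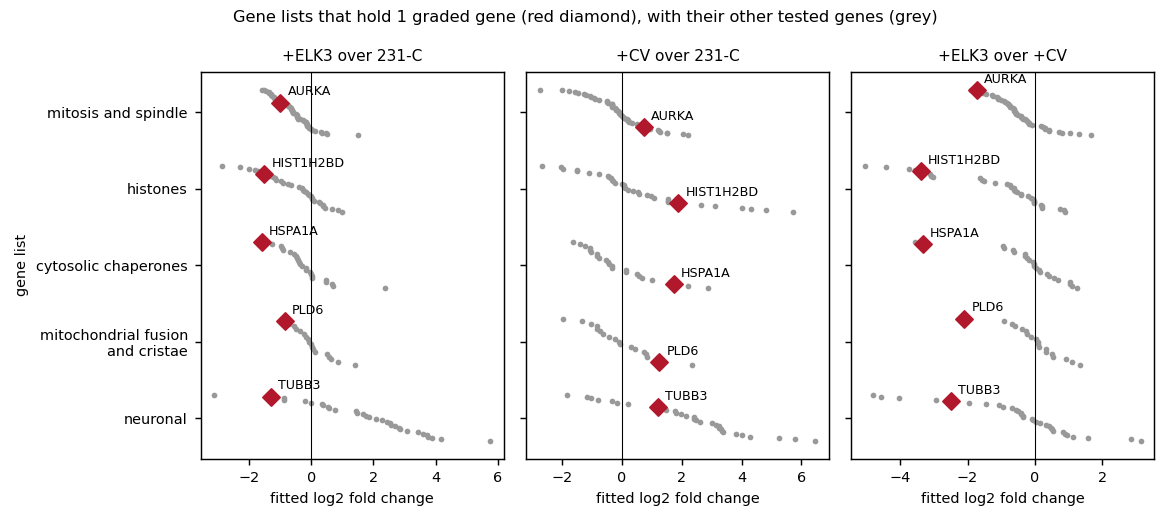
Fitted log2 fold changes (x axis) of the tested genes of the 5 lists that hold 1 graded gene (y axis), for +ELK3-labelled libraries over controls, +CV-labelled libraries over controls and +ELK3-labelled over +CV-labelled libraries. Grey points are the lists' other genes, sorted within a list, and red diamonds the graded gene, which by the rule lies left of 0, right of 0 and left of 0. Other genes of each list spread to both sides of 0 in every panel.

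Of the 5 lists of markers of cells other than the labelled line, the summed level of 2 followed the order of ELK3 and that of 3 did not. Of 20 tested liver genes, 0 were higher and 16 lower in +ELK3-labelled libraries than in controls, 0 were called either way between +CV-labelled libraries and controls, and 0 were higher and 18 lower in +ELK3-labelled than in +CV-labelled libraries. Their summed level was 12380 to 12670 CPM in +ELK3-labelled libraries, 14820 to 15880 CPM in +CV-labelled libraries and 13510 to 13730 CPM in controls, the order of ELK3, with a median log2 change of -0.33 between the plasmid groups. Of 17 tested lymphocyte and NK genes, 2 were higher and 7 lower in +ELK3-labelled libraries than in controls, 3 higher and 1 lower in +CV-labelled libraries than in controls, and 1 higher and 10 lower in +ELK3-labelled than in +CV-labelled libraries. Their summed level was 429.8 to 441.1 CPM in +ELK3-labelled libraries, 506.9 to 542.9 CPM in +CV-labelled libraries and 485.3 to 491.9 CPM in controls. The other lists were not in that order. Of 19 tested HEK293 genes, 13 were higher and 1 lower in +ELK3-labelled than in +CV-labelled libraries. Of 12 tested fibroblast and endothelial genes, 1 was higher and 2 lower in +ELK3-labelled than in +CV-labelled libraries, and their summed level was 98.02 to 108.5 CPM in +ELK3-labelled libraries, 106.5 to 124.7 CPM in +CV-labelled libraries and 68.81 to 71.74 CPM in controls. Of 9 tested luminal breast genes, 3 were higher and 4 lower in +ELK3-labelled than in +CV-labelled libraries, and their summed level was 289.9 to 305.3 CPM in +ELK3-labelled libraries, 351.3 to 351.9 CPM in +CV-labelled libraries and 179.8 to 185.3 CPM in controls. No gene of these lists is among the 54, none was at 0 in every library, and their part in the graded pattern was not tested. Whether cells of these types were in the cultures, and where these transcripts came from, was not tested. In bulk RNA, fewer cells of a type and less RNA per cell cannot be told apart.

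By RefSeq annotation, which matched 53 of the 54 genes and 11359 of the 11470, 43 (81.1%) were protein coding, 8 (15.1%) noncoding RNAs and 2 (3.77%) pseudogenes, beside 10790, 331 (2.91%) and 238 (2.1%) of the 11359 measured genes. Chromosome 19 held 6 of them among 744 measured genes (0.806%), chromosome 11 held 5 of 662 (0.755%) and chromosome 20 held 4 of 318 (1.26%). Chromosomes 12 and 3 held 4 each, of 599 (0.668%) and 664 (0.602%), and chromosome 15 held 3 of 375 (0.8%). The share was 0.471% over all genes at that level. Counts per chromosome are small, and position was not tested. Chromosomes 4, 5, 18 and 21, with 409, 530, 161 and 101 measured genes, held 0. PPP2R5B and GPHA2 are direct neighbours on chromosome 11 and overlap in the annotation, so their counts may share reads. On chromosome 19, DOHH, CACTIN and APBA3 lay within a stretch of 7 measured genes. Of the 4 others in that stretch, TBXA2R, the thromboxane A2 receptor, averaged 7.94 CPM in +ELK3-labelled libraries, 15.0 CPM in +CV-labelled libraries and 10.79 CPM in controls. FZR1, HMG20B and PIP5K1C had means below controls in both plasmid groups. ZFP37 and SLC31A2 on chromosome 9 had 1 measured gene between them. Of 103 measured genes next to a graded gene, 10 (9.71%) had means below controls in +ELK3-labelled and above them in +CV-labelled libraries. The share was 10.4% over all genes with 5 CPM in controls. Of the 103 genes, 2 were graded, PPP2R5B and GPHA2. The other 101 had a median log2 change of -0.18 in +ELK3-labelled libraries and -0.22 in +CV-labelled libraries against controls, beside 0.027 and -0.080 over all genes with 5 CPM in controls.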

How the data were processed

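The deposited values are raw read counts per gene symbol and library, one file per library, with no scaling by the authors that the files show. Per the submitters' processing notes, Bowtie2, edgeR and the hg19 genome were used; versions, how reads were counted, with which annotation, and filters are not given in the sources used here. Each file held 25737 lines and 24462 distinct symbols, and 1561 lines shared 286 symbols and were summed. Sequencing depth was 4884483 to 9131214 counts per library, at which 3 counts, the limit that a count of 0 allows at 95% confidence, equal 0.329 to 0.614 CPM. Replicates of a group differed by more than counting noise (chi-square per degree of freedom 2.21 to 3.02), so none was a duplicate.

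CPM were counts over library totals. Ratios carry 95% counting intervals from the summed counts. EdgeR 4.0.16 (R 4.3.3, limma 3.58.1) fitted 1 robust quasi-likelihood model with TMM scaling to all 6 libraries, after filterByExpr, with 15386 genes, 3 residual degrees of freedom and a common biological coefficient of variation of 0.0645; all 54 members passed the filter. Two-sided p-values from every tested gene received the Benjamini-Hochberg adjustment, and 0.05 was the threshold. DESeq2 1.42.0 gave alternative scaling and tests. Python 3.11.15 with pandas 2.3.3, numpy 2.4.6, scipy 1.17.1 and matplotlib 3.10.9 was used for the rest. The fit was also run on simulated data in which 200 genes changed in a single group. Far more genes were called in these data, so that run does not check the calls made here.

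The genes described, the gene lists and the tests were chosen with earlier results of these data known, and the roles by which the genes are grouped were assigned after their values were seen. Genes were named by rule: ELK3, the 20 members with the largest smaller change and separate groups (LOC names skipped), the 10 nearest to ELK3, up to 4 per list, those beside each threshold and those with overlapping groups; other genes named were chosen after their values were seen. Alternatives were other scalings, level and fold thresholds, symbols on 1 line, each replicate alone, a replicate block, no filter, DESeq2's test and each library left out. Promoters and gene classes came from RefSeq (GRCh38.p14); no coordinates were carried over to hg19.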

Additional observations from a re-analysis of the deposited data

How the results depend on the processing

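The number of graded genes depended most on the thresholds of the rule. With at least 1 CPM in controls it was 122, with a fold of 2 it was 11, and with a fold of 1.3 it was 155, against 54. With 10 CPM it was 36, and with symbols on 1 line 54, of which 51 were among the 54. Replicate 1 alone gave 44 genes (34 of the 54) and replicate 2 alone 66 (39 of the 54). With each library left out in turn it was 49 to 58, and 22 of the 54 met the rule in every one of these 6 settings. The mirrored rule gave 112 genes, and 87 and 93 with TMM and DESeq2 scaling. With each library left out, 48 to 54 of the 54 were called lower in +ELK3-labelled libraries than in controls, 46 to 52 higher in +CV-labelled libraries than in controls and 54 to 54 lower in +ELK3-labelled than in +CV-labelled libraries. Where a group was left with 1 library, that library was assumed to vary like the others. By DESeq2's test the counts were 46, 41 and 54. Replicate numbers did not pair the libraries: same-numbered libraries' deviations from their group means correlated at 0.0332, -0.0556 and -0.000659. With a replicate block, 9528 genes differed between +ELK3-labelled libraries and controls, 11057 between +CV-labelled libraries and controls and 9050 between the plasmid groups, against 9630, 11117 and 9176 without it, and 54, 53 and 54 of the graded genes were called. The fitted log2 changes of ELK3 and the 54 graded genes against controls changed sign under no setting run; those of other named genes, and those between the plasmid groups, were not rerun. The counts of the 18 graded genes under 10 CPM in controls limit the precision of their ratios.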
